A study of Homo sapiens with 6 samples.

Results

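Parental H1975 cells were compared with parental HCC827 and PC9 cells, 3 lung cancer lines that depend on a mutated epidermal growth factor receptor (EGFR). HCC827 and PC9 carry the EGFR mutation labelled E19Del, an in-frame deletion in exon 19, and H1975 carries L858R/T790M, a pair of amino acid changes in the kinase. All 3 libraries came from cells that the labels call nontreated and sensitive to kinase inhibitors. The same 3 lines after 90 days of selection gave the series' other libraries, 6 in all: HCC827-GR and PC9-GR were selected with gefitinib, and H1975-OR with osimertinib. There was 1 library for each line and state, all lines grew in RPMI-1640 with serum, and the labels do not say whether a line is 1 clone. A gene was counted as measured where it had at least 10 CPM (exon reads per 1000000 of the library) in at least 1 parental library, which held for 11019 of 21463 genes. A member was a measured gene at least 2-fold higher, or at least 2-fold lower, in H1975 than in HCC827 and also in PC9. There were 1928 members, 17.5% of the measured genes: 960 higher (8.71%) and 968 lower (8.78%). Mutation class and cell line are the same split of these 3 libraries, so the 2 cannot be told apart in any value below.

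EGFR is a receptor tyrosine kinase of epithelial cells that passes growth signals from ligands such as amphiregulin to the RAS-ERK and PI3K-AKT chains. Deletions in exon 19 and the L858R change both hold the kinase active without ligand and make it sensitive to gefitinib, while T790M in the drug pocket lowers the effect of gefitinib and leaves the receptor open to osimertinib. Carcinoma cells also differ in how far they keep epithelial traits, such as E-cadherin junctions, keratins and secretory products, or carry mesenchymal traits, such as vimentin, fibrillar collagens and ZEB repressors.

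Reference sequence of the 3 mutated places in EGFR is shown first, because it is what sets the lines apart by label. It was read from the hg38 genome, 5′ to 3′, and no sequence of the lines themselves was used. Capitals mark a run of codons in exon 19 that common exon 19 deletions remove (the labels do not give the deleted bases), then the codon changed by T790M in exon 20 and the codon changed by L858R in exon 21.
EGFR exon 19, chr7:55174722-55174820, plus strand: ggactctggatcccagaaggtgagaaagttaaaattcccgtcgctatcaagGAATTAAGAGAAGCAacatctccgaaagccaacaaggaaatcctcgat
EGFR around the T790M codon, chr7:55181347-55181409, plus strand: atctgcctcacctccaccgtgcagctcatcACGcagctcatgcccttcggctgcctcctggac
EGFR around the L858R codon, chr7:55191791-55191853, plus strand: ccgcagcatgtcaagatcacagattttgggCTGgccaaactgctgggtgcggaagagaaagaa

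EGFR itself (ENSG00000146648) was a member on the lower side. Its level was 2379 CPM in HCC827, 941 CPM in PC9 and 388 CPM in H1975. The log2 ratio of H1975 was -2.61 to HCC827 and -1.28 to PC9, and the deletion lines differed from each other by 1.34. The distance from H1975 to PC9 was thus smaller than the distance between the deletion lines. With TPM in place of scaled CPM the ratio to PC9 was -0.93, under 2-fold. In the resistant libraries the levels were 145 CPM in HCC827-GR, 848 CPM in PC9-GR and 224 CPM in H1975-OR, so HCC827-GR lay below both H1975 libraries and the order of lines did not carry over. Genes that lie beside EGFR on the short arm of chromosome 7 were also lower in H1975: 5 of 11 measured neighbours were members and 0 were higher. Of the 5, MRPS17 lies within the span of NIPSNAP2 and only 10.3% of MRPS17 reads were unique, so these genes are not counted independently. VOPP1 was at 2328, 381 and 103 CPM in HCC827, PC9 and H1975, CHCHD2 at 1821, 1143 and 422 CPM, and CCT6A, a chaperonin subunit, at 1817, 1431 and 690 CPM. The summed level of the neighbours was 10117 CPM in HCC827, 3983 CPM in PC9 and 1933 CPM in H1975, and 1376 CPM in HCC827-GR. None of the 5 passed 2-fold on the lower side in all 6 libraries. With library size alone, or with TPM, 3 neighbours were past 2-fold.

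Depth was alike in the 3 libraries, with 28140012 total exon reads in HCC827, 21222102 in PC9 and 21249637 in H1975; 3 reads of H1975 were 0.127 CPM, far under the minimum of 10 CPM. Scaled CPM are total exon reads of each gene after trimmed mean of M values (TMM) scaling over the 6 libraries. Ratios are log2 with 1 CPM added to both values, which understates differences of low genes. The gap of a gene is the smaller in size of its ratios to HCC827 and PC9. Intron reads made up 9.36% of gene reads in H1975 and 9.2% in H1975-OR, against 5.7% to 7.01% in the deletion-line libraries, and the part of this in the members was not tested. The epithelial origin of all lines was visible in their markers: KRT8 was at 4074, 2641 and 1195 CPM in HCC827, PC9 and H1975, although all 6 epithelial markers were members on the lower side. Lung lineage markers were highest in HCC827 by their summed level (436, 0.289 and 15.7 CPM): NKX2-1, a transcription factor of the lung epithelium, was at 140 CPM in HCC827, 0.0963 CPM in PC9 and 8.42 CPM in H1975. SFTPC, INSM1 and NEUROD1 were at or near 0 in all libraries, as were the leukocyte markers PTPRC, CD3E and TYROBP and the fibroblast marker DCN. LAPTM5, listed as a leukocyte gene, was at 141 CPM in PC9 and 1.14 CPM in H1975, and COL1A1, listed as a fibroblast gene, was the only one of these other-cell markers to be a member (59.2 CPM in H1975 against 20 and 14.5 CPM in HCC827 and PC9).

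The median gap of the higher members was 1.52 on the log2 scale, and that of the lower members 1.51 in size. Past 4-fold lay 258 higher (2.34% of measured genes) and 303 lower members (2.75%), and past 16-fold 47 (0.427%) and 55 (0.499%). Without a fold minimum, H1975 lay above both lines for 3839 genes (34.8%), below both for 3991 (36.2%), and between them for 3189. HCC827 and PC9 differed from each other by at least 2-fold in 3206 genes (29.1%). Against HCC827 alone H1975 was 2-fold higher in 1863 genes (16.9%) and lower in 1956 (17.8%), and against PC9 alone in 1866 (16.9%) and 1926 (17.5%). The gap exceeded the HCC827 to PC9 difference in 802 higher members (83.5%) and 845 lower members (87.3%). The member rule uses the gap itself and so favours such genes, and no share over all measured genes was computed. Close to the threshold, 96 higher and 97 lower members had a gap between 2-fold and 2.1-fold, and 126 and 111 genes lay just outside, between 1.9-fold and 2-fold. On the low side, 62 higher members were under 1 CPM in both deletion lines, and 170 lower members were under 1 CPM in H1975.

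**Figure D1:**
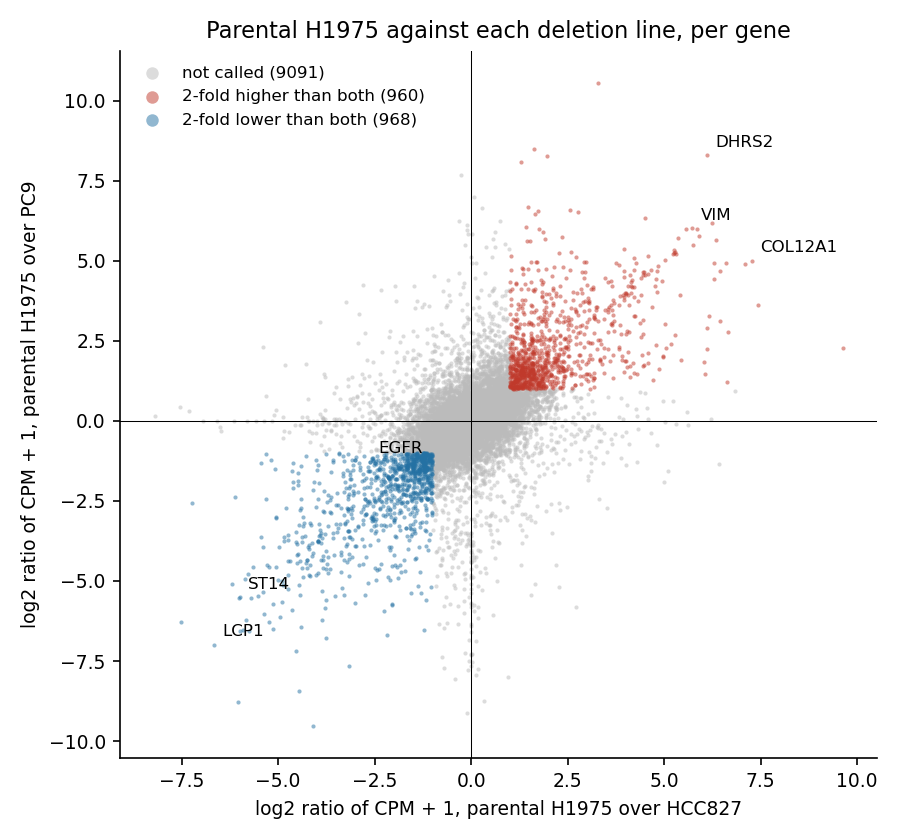
Each point is a measured gene, by its log2 ratio of CPM + 1 in parental H1975 over HCC827 (horizontal) and over PC9 (vertical). The 960 genes at least 2-fold higher than both lines are red, the 968 at least 2-fold lower are blue, and the other 9091 are grey; points along an axis are genes in which the deletion lines differ from each other.

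Scaling moved the balance of the 2 directions. Under TMM 49.8% of members were higher, but with library size alone the counts were 1298 higher and 764 lower (62.9% higher), and with TPM 1485 and 549 (73% higher). The median ratio of all measured genes was -0.03 to HCC827 and -0.01 to PC9 under TMM, 0.14 and 0.17 with library size alone, and 0.31 to both lines with TPM. Differences below are therefore relative to the median gene, and the balance of directions is not a result. The quasi-likelihood test of edgeR, run on 14427 genes of the 3 libraries with the lone H1975 library assumed to vary like the deletion lines, called 0 genes at an adjusted p under 0.05. Its smallest adjusted p (Benjamini-Hochberg) was 0.536, its common dispersion was 0.564 on 1 residual degree of freedom, and 929 genes had an unadjusted p under 0.05. DESeq2 called 583 genes (146 higher, 437 lower) and limma-voom 0. Members are for this reason described by fold, with no claim on the spread between cultures of a line.

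Values that the choice of members did not use were the resistant libraries and the intron reads. H1975-OR was at least 2-fold higher than HCC827-GR and PC9-GR for 531 of the 960 higher members (55.3%, against 7.78% of all measured genes) and at least 2-fold lower for 507 of the 968 lower members (52.4%, against 7.77%). These are second libraries of the same lines, not further lines with the same mutations. Both H1975 libraries lay at least 2-fold above all 4 deletion-line libraries for 446 genes (4.05% of measured genes) and below them for 400 (3.63%). Without HCC827-GR, the library that lay on the H1975 side in the epithelial and mesenchymal lists below, the counts were 632 and 677. By intron reads, which stem mostly from unspliced RNA, 535 of the 875 higher members with at least 20 such reads in a library were at least 2-fold higher than both lines (61.1%, against 9.08% of measured genes). For the lower members it was 538 of 894 (60.2%, against 8.05%), and only 2 higher and 4 lower members passed 2-fold on the opposite side.

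The 15 genes with the largest gap upward were MT1E, DHRS2, CCL2, TDRD9, VIM, CD74, KCTD12, MEIOB, OLFM1, RGS4, FLRT2, COL12A1, COL5A1, TENM3 and ANPEP. Vimentin (VIM), the intermediate filament of mesenchymal cells, was at 39 CPM in HCC827, 31.6 CPM in PC9 and 2114 CPM in H1975, a gap of 5.72. MT1E, a metal-binding metallothionein, had 0 reads in HCC827, 0.0481 CPM in PC9 and 74.8 CPM in H1975, at least 686-fold higher than in HCC827. DHRS2, a short-chain dehydrogenase, was at 4.66, 0.241 and 389 CPM. In each of these, HCC827 and PC9 were low and H1975 was high, which is how the genes were chosen. Germ-line genes were among them: TDRD9, a helicase of the piRNA pathway, was at 1.89, 2.12 and 172 CPM, and MEIOB, a meiotic recombination protein, was at 0 reads in both deletion lines and 37.6 CPM in H1975, at least 344-fold above HCC827 and at least 260-fold above PC9. OLFM1 and TENM3, both known from neurons, had 0 reads in both deletion lines and 37 and 27.4 CPM in H1975. ANPEP, the cell-surface aminopeptidase CD13, was at 1.31, 6.74 and 200 CPM. In the resistant libraries these genes split: DHRS2 stayed at 3.9 CPM in HCC827-GR, 0.166 CPM in PC9-GR and 286 CPM in H1975-OR, while VIM was at 878, 103 and 2472 CPM and RGS4, a brake on G protein signalling, at 2.63, 3.78 and 6.51 CPM. Over all 6 libraries the gap of VIM was 1.27, with HCC827-GR the nearest deletion-line library, and that of RGS4 was 0.65.

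Downward, the 15 genes were LCP1, BEX3, CEACAM6, ARHGDIB, STK26, KCNK1, AP1M2, LAD1, ST14, TSPYL5, TSPAN1, IGF2BP1, AIF1L, ALPP and AGR2. LCP1, the actin bundler L-plastin, was at 363 CPM in HCC827, 459 CPM in PC9 and 2.62 CPM in H1975. BEX3 was at 190, 80.5 and 0.0423 CPM, and in the resistant libraries at 212, 113 and 0.0657 CPM, the widest six-library gap of the 30 genes at -6.26. STK26, a kinase of the Ste20 family, KCNK1, a potassium channel, and TSPYL5 had 0 reads in both H1975 libraries. Against the limit of 3 reads in H1975, STK26 was at least 465-fold higher in HCC827 and at least 714-fold higher in PC9, KCNK1 at least 442-fold and 584-fold, and TSPYL5 at least 353-fold and 344-fold. IGF2BP1, an RNA-binding protein of embryonic tissue, was at 38.4 and 80.1 CPM in the deletion lines, 30.3 and 81.7 CPM in their resistant sublines, and 0.0423 and 0 CPM in H1975 and H1975-OR. ALPP, placental alkaline phosphatase, was at 50.4, 133 and 0.465 CPM. For these genes the 4 deletion-line libraries were all high and the H1975 libraries all at or near 0. LCP1, ARHGDIB, AP1M2, ST14, TSPAN1, AIF1L, CEACAM6 and AGR2 differed in that HCC827-GR was also low: ARHGDIB was at 18 CPM in HCC827-GR against 256 CPM in HCC827.

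**Figure D2:**
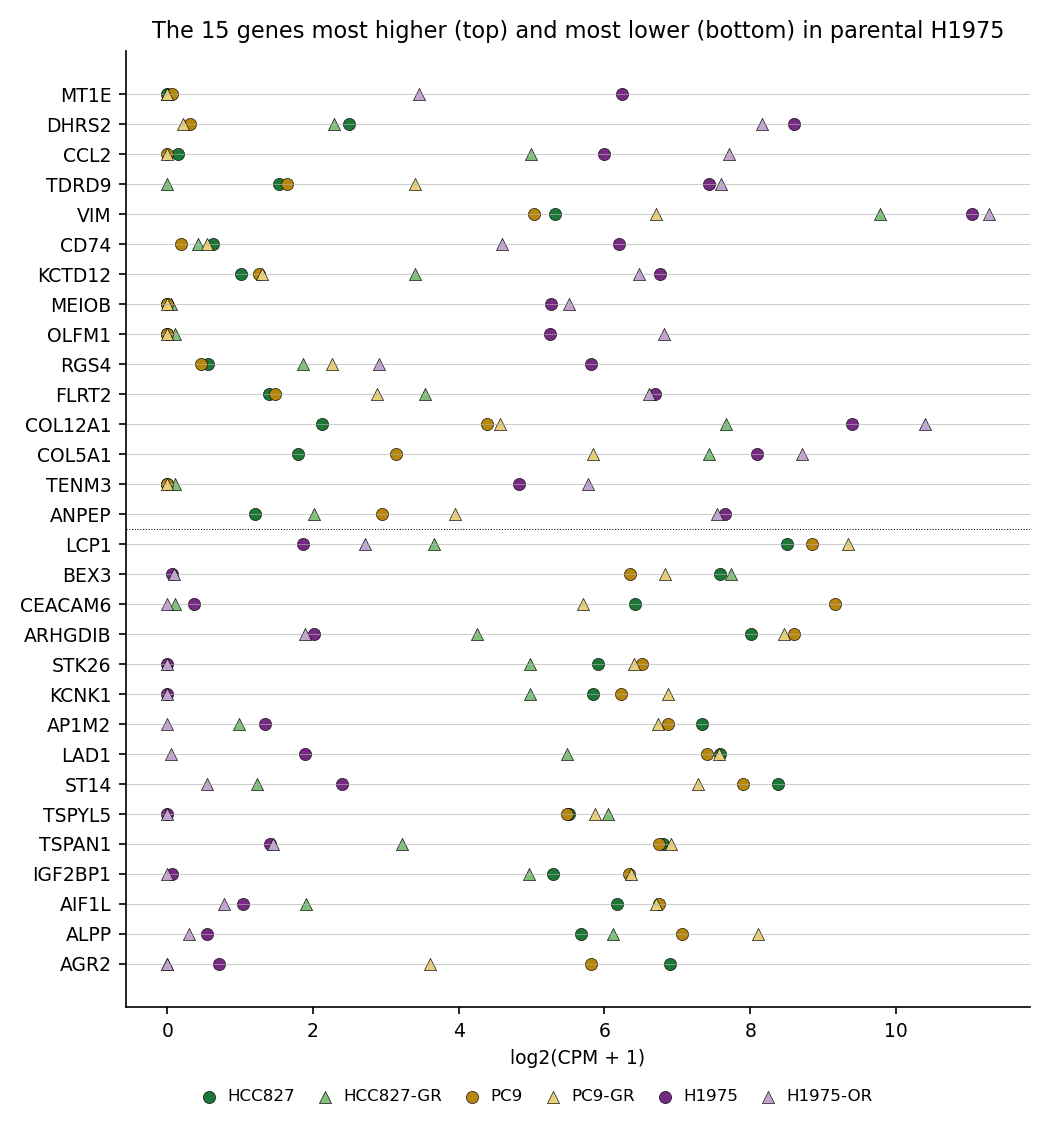
The 15 genes with the largest gap upward and the 15 with the largest gap downward, with log2(CPM + 1) on the horizontal axis. Circles are parental and triangles resistant libraries. Purple H1975 symbols lie to the right of the green and yellow deletion-line symbols in the upper rows. In the lower rows they lie to the left, except that HCC827-GR (light green) lies left of parental H1975 for CEACAM6, AP1M2, ST14 and AGR2. HCC827-GR also lies toward the H1975 side for genes such as VIM.

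Epithelial junction, polarity and splicing genes had the largest share of lower members among the 31 lists, 33 of 41 measured. None of the 41 was at least 2-fold higher in H1975 than in both deletion lines, and the list had a median gap of -2.84 (0 over all measured genes). E-cadherin (CDH1), the adhesion molecule of epithelial junctions, was at 466 CPM in HCC827, 212 CPM in PC9 and 22.3 CPM in H1975. EPCAM was at 432, 740 and 26.5 CPM. Both genes were still read in H1975, with gaps of -3.19 and -3.98. ESRP1, the RNA-binding protein that sets epithelial splicing, was at 257, 160 and 5.84 CPM, and GRHL2 and OVOL1, transcription factors that maintain epithelium, at 60, 95.4 and 1.78 CPM and at 15.7, 27 and 0.254 CPM. The surface proteases ST14 (matriptase; 334, 238 and 4.27 CPM) and PRSS8 (64.4, 51.8 and 1.95 CPM) and their inhibitor SPINT1 (155, 163 and 4.87 CPM) were low together in H1975. Tight junction genes were lower as well: CLDN7 was at 368, 216 and 14.8 CPM, OCLN at 86.9, 33.3 and 3.3 CPM, and CGN at 136, 31.9 and 3.98 CPM.

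The list did not separate the lines in all 6 libraries. Its summed level was 7217 CPM in HCC827, 6361 CPM in PC9, 6074 CPM in PC9-GR and 1785 CPM in H1975, but 2147 CPM in HCC827-GR and 989 CPM in H1975-OR. Accordingly, 14 of the 33 passed 2-fold in all 6 libraries, and all 33 did so without HCC827-GR. CDH1 was at 22.1 CPM in HCC827-GR, level with parental H1975, and at 0.131 CPM in H1975-OR. Lower levels in H1975 than in all 4 deletion-line libraries were held by LLGL2, a polarity protein (146, 95.7 and 6.01 CPM, with 58.1 and 92.8 CPM in the resistant deletion sublines and 1.68 CPM in H1975-OR), CLDN3, OCLN, CRB3 and KLF5 among others.

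Promoters of 3 of these genes are printed because each holds the letters CACCTG, bound by the ZEB and SNAI repressors of epithelial genes, more than once. They are RefSeq promoters on GRCh38.p14, 250 bases before to 50 after the gene's start, in the direction of the gene. Capitals mark CACCTG on either strand (CAGGTG is the same site read from the other strand).
AP1M2 promoter, chr19:10587263-10587562, minus strand: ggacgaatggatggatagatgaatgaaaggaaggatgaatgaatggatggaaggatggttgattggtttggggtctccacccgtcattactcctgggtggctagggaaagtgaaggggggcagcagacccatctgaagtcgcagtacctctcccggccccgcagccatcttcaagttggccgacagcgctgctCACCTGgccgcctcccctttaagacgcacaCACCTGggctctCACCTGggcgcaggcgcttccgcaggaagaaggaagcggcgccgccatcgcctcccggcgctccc
RAB25 promoter, chr1:156060910-156061209, plus strand: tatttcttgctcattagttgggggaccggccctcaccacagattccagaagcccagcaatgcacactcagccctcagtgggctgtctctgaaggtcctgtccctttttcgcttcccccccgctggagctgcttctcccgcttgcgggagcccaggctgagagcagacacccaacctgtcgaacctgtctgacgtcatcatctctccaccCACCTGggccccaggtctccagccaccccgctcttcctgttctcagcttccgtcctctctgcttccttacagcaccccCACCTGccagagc
CRB3 promoter, chr19:6464021-6464320, plus strand: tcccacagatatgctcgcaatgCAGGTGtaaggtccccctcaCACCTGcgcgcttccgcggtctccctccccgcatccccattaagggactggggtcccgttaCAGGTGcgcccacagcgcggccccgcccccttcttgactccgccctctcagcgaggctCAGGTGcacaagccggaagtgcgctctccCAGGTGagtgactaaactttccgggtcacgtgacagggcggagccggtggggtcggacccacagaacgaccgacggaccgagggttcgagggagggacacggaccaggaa
The motif stood 3 times in AP1M2, 2 times in RAB25 and 5 times in CRB3, with no overlap. Of the 16 lower epithelial genes with a promoter in the table, 8 held it (50%), against 20.6% of all 27305 promoters, 18.3% of the 8820 measured genes with a promoter, 28.1% of lower and 14.1% of higher members. AP1M2, an adaptor subunit for sorting to the basolateral membrane, was at 160, 116 and 1.52 CPM, RAB25, a GTPase of the same recycling route, at 41.6, 70.7 and 0.423 CPM, and CRB3, a polarity protein, at 19.5, 10.7 and 0.635 CPM. Such a match is a description of letters, and binding was not measured.

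Mesenchymal genes were the counterpart. Of 20 measured, 14 were higher in H1975 than in both deletion lines and 0 lower, with a median gap of 3.05. The ZEB repressors were among them: ZEB1 was at 0.618 CPM in HCC827, 1.06 CPM in PC9 and 43.7 CPM in H1975, and ZEB2 at 0.218, 0.241 and 10.2 CPM. SNAI1, another repressor of E-cadherin, was at 6.11, 2.21 and 16.9 CPM. Beside VIM, matrix genes had wide gaps. COL5A1 was at 2.47, 7.85 and 272 CPM, COL1A2 at 0.145, 0.0963 and 28.1 CPM, SPARC at 8.55, 13.1 and 291 CPM and fibronectin (FN1) at 120, 125 and 955 CPM. CDH11, a cadherin of mesenchymal cells, was at 0.109 CPM in HCC827, 0 reads in PC9 and 23.9 CPM in H1975. LOX, a collagen cross-linker, was at 2, 12.7 and 406 CPM, but only 38.3% of its reads mapped uniquely, so its level is uncertain. H1975 was the high line for all of these by the member rule, and PC9 was above HCC827 for COL5A1 and LOX.

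HCC827-GR shared part of this pattern. ZEB1 was at 25.7 CPM, ZEB2 at 32.4 CPM and COL5A1 at 173 CPM in that library. In all 6 libraries 8 of the 14 passed 2-fold, and 12 did so without HCC827-GR. COL1A2 (0.113 and 0.208 CPM in the resistant deletion sublines, 87.5 CPM in H1975-OR), CDH11 and TNC kept the widest distance.

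**Figure D3:**
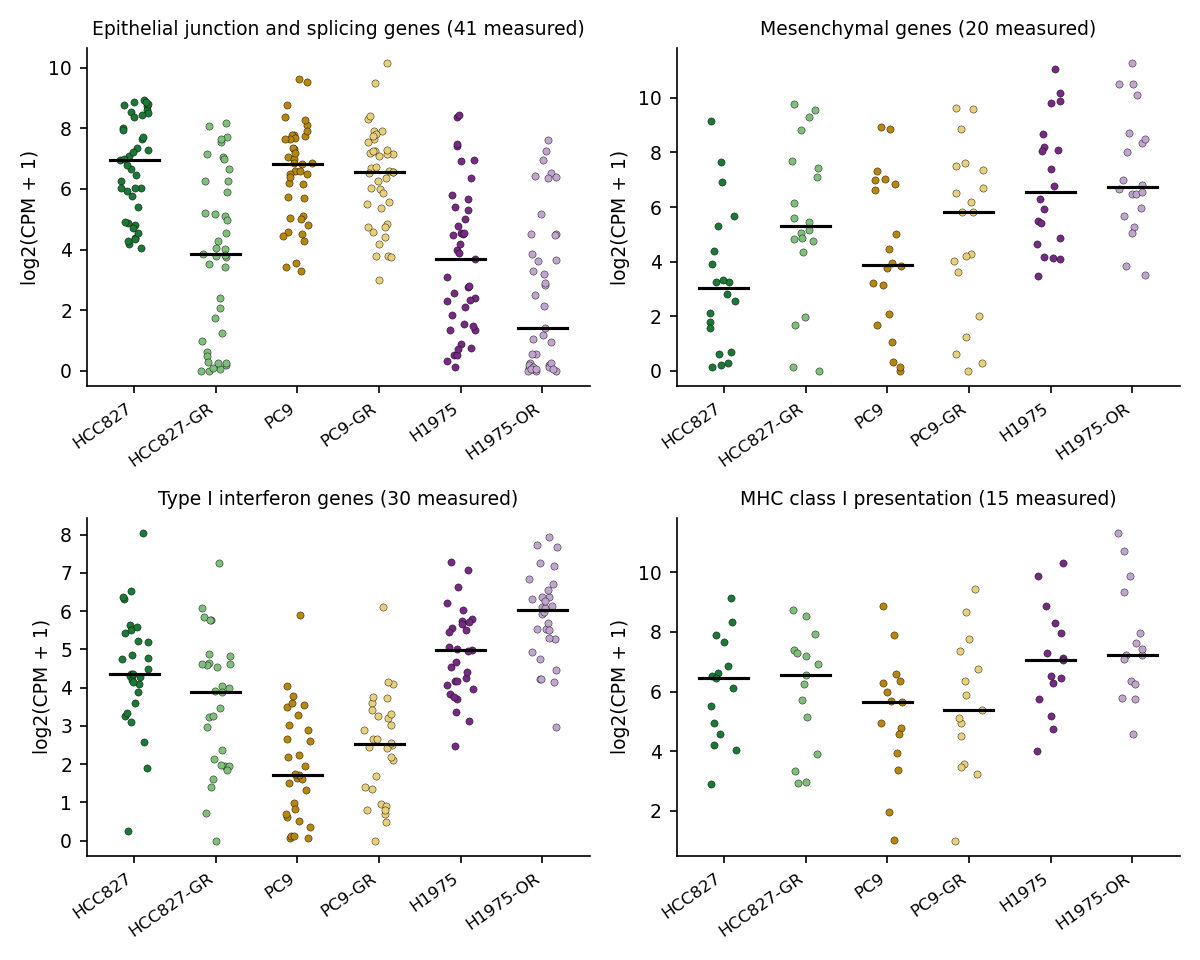
Levels, log2(CPM + 1), of the measured genes of 4 lists in each of the 6 libraries; each point is a gene and the bar is the median. Epithelial genes are lowest in H1975, H1975-OR and HCC827-GR; mesenchymal genes are highest in H1975 and H1975-OR; for interferon and MHC class I genes the H1975 libraries are highest and the PC9 libraries lowest.

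Keratins, the intermediate filaments of epithelium, were lower in H1975 in 9 of 16 measured and higher in 1. The simple-epithelium keratins remained abundant: KRT7 was at 3330, 2127 and 509 CPM in HCC827, PC9 and H1975, KRT18 at 3270, 2138 and 687 CPM and KRT19 at 1765, 793 and 315 CPM. KRT6A and KRT13, keratins of stratified epithelium, were near 0 in H1975 and uneven between the deletion lines: KRT6A was at 8.33, 208 and 0.0423 CPM, and KRT13 at 3.56 and 101 CPM with 0 reads in H1975. KRT16 (28.1, 43.4 and 2.45 CPM) and KRT15 (38.6, 48.6 and 7.61 CPM) were closer in the deletion lines and still read in H1975. KRT81, a hair keratin, was the exception at 1.2, 3.03 and 13.7 CPM, with 54.3% of reads unique.

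Airway secretory and mucin genes were lower in 7 of 13 and higher in 0. CEACAM6, an adhesion molecule of the carcinoembryonic antigen family, was at 84.2, 572 and 0.296 CPM, and CEACAM5 at 14 and 9.58 CPM with 0 reads in H1975, at least 111-fold and 75.5-fold lower (52.5% unique). AGR2, a disulfide isomerase for mucin folding, was at 118, 55.1 and 0.635 CPM. The membrane mucins MUC4 (50.6, 43.5 and 4.95 CPM) and MUC16 (217, 119 and 23.4 CPM) and the siderophore binder LCN2 (89, 1175 and 20.7 CPM) completed the picture. Of the alveolar lineage genes, 1 of 12 was lower and 2 higher, near the share of all genes for so short a list. FOXA1, a pioneer factor of airway epithelium, was at 68.4, 31.8 and 0.381 CPM, and the lipid transporter ABCA3 at 22.7, 15.2 and 102 CPM. FOXA1 stayed low in H1975-OR (0.131 CPM, with 41.1 and 13.3 CPM in the resistant deletion sublines). S100 proteins were lower in 3 of 11, among them S100A14 (37.8, 243 and 0.677 CPM), and higher in 1, S100A3.

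Interferon-stimulated genes were higher in 10 of 30 measured and lower in 0. Their median ratio was 2.43 to PC9 but 0.11 to HCC827, and their summed level was 1085 CPM in HCC827, 180 CPM in PC9 and 1219 CPM in H1975, so over the whole list PC9 was low and HCC827 near H1975. BST2 (tetherin), which holds budding virus at the membrane, was at 46.8 CPM in HCC827, 0.289 CPM in PC9 and 133 CPM in H1975. OAS2 was at 4.98, 0.0963 and 17.9 CPM and IFIT5, a sensor of foreign RNA ends, at 11, 2.07 and 51.5 CPM. From low to high, the order PC9, HCC827, H1975 held for these 3 genes. OASL was level in the deletion lines, at 2.73, 2.26 and 15.7 CPM, and SAMHD1 was low in HCC827, at 0.182, 12.7 and 50.1 CPM (58% of reads unique). In the resistant libraries OAS2 was at 1.65 CPM in HCC827-GR, 0.416 CPM in PC9-GR and 91.9 CPM in H1975-OR, and 9 of the 10 passed 2-fold in all 6 libraries. Reads of IFIT1, IFIT2 and IFIT3 mapped uniquely in 9.8%, 4.99% and 9.15% of cases, so these neighbours on chromosome 10 cannot be separated with confidence, and by unique reads alone 6 genes of the list were past 2-fold.

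MHC class I genes, which load and show peptides to T cells, were higher in 5 of 15 and lower in 0. HLA-B was at 204 CPM in HCC827, 62.9 CPM in PC9 and 946 CPM in H1975. TAP1, the peptide transporter, was at 30, 9.24 and 87.2 CPM (63.4% unique), and beta-2-microglobulin (B2M), the shared light chain, at 561, 468 and 1278 CPM. ERAP2, which trims peptides in the endoplasmic reticulum, was at 6.4, 49.5 and 246 CPM, and NLRC5, the transactivator of class I genes, at 17.5, 22.9 and 52.8 CPM. All 5 were highest in H1975 by the member rule, with PC9 lowest for HLA-B, TAP1 and B2M and HCC827 lowest for ERAP2 and NLRC5. In the resistant libraries HLA-B was at 169 CPM in HCC827-GR, 218 CPM in PC9-GR and 2548 CPM in H1975-OR. Of 12 listed class II genes 3 were measured, and all 3 were higher. Each reached 10 CPM in H1975 alone among the parental libraries, so the minimum favoured a higher call. CD74, the invariant chain, was at 0.546, 0.144 and 72.5 CPM. HLA-DMA was at 3.78, 3.9 and 12.2 CPM, and their transactivator CIITA at 3.89, 1.3 and 13.5 CPM (74.5% and 46% of the reads of the last 2 were unique). CD74 kept its distance in H1975-OR at 23.1 CPM, against 0.338 and 0.457 CPM in the resistant deletion sublines, but CIITA was at 4.3 CPM there, below HCC827-GR at 5.06 CPM.

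Promoters of 5 of these genes are shown because they hold GAAA, any 2 bases and GAAA again, the core of the interferon-stimulated response element. Capitals mark it on either strand (TTTC, 2 bases and TTTC when read from the other strand), and the source is the same as above.
IFIT1 promoter, chr10:89392373-89392672, plus strand: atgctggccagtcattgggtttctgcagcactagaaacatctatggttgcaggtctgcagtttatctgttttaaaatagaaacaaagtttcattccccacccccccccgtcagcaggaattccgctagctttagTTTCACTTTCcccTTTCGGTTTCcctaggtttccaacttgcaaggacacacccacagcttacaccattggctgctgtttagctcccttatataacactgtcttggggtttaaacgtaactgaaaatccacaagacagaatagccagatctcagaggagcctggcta
IFIT3 promoter, chr10:89327747-89328046, plus strand: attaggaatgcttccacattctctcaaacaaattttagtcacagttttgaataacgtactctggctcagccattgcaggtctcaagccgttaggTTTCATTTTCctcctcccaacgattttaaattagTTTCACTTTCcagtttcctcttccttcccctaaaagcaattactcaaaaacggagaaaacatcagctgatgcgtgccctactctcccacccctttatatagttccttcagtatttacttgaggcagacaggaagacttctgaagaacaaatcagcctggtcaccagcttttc
IFIT5 promoter, chr10:89414318-89414617, plus strand: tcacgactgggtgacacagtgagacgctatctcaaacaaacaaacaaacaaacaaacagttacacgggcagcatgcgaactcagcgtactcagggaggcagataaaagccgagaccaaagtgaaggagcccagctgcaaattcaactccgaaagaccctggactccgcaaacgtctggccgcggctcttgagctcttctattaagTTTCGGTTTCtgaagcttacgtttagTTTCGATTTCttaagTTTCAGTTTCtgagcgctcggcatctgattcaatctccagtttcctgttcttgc
B2M promoter, chr15:44711267-44711566, plus strand: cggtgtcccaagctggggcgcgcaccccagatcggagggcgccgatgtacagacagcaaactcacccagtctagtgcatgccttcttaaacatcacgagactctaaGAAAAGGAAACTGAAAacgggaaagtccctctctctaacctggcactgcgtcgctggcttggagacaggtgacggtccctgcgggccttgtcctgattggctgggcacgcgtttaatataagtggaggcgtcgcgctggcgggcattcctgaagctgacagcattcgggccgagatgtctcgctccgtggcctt
TAP1 promoter, chr6:32853655-32853954, minus strand: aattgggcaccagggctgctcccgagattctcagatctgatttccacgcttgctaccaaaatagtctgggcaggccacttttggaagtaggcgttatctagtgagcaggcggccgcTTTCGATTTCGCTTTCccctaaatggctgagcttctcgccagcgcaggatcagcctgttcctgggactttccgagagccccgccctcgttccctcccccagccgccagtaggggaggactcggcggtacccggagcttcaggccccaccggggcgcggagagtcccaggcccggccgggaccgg
IFIT5 held it 3 times, and IFIT1, IFIT3, B2M and TAP1 2 times each, overlapping in B2M and TAP1. Of the 7 higher interferon genes with a promoter in RefSeq's set, 5 held it, as did 2 of 4 higher class I genes, against 3.65% of all promoters, 2.69% of measured genes and 4.1% of higher members. XAF1, SAMHD1, HLA-B and ERAP2 had no match in this window.

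Chemokine, interleukin and NF-kB genes were higher in 12 of 23 and lower in 1. CCL2, which draws monocytes, was at 0.109 CPM in HCC827, 0 reads in PC9 and 62.8 CPM in H1975, at least 435-fold above PC9. The neutrophil chemokines CXCL1 (11.3, 2.55 and 88.6 CPM) and CXCL8 (10.2, 27 and 131 CPM) followed, as did IL6 (4.15, 4.53 and 22.7 CPM), IL24 (0.182 CPM, 0 reads and 20.4 CPM) and BIRC3, an NF-kB target that blocks cell death (35.5, 36.4 and 133 CPM). CXCL16, a transmembrane chemokine, was the lower gene at 34.4, 45.3 and 1.48 CPM. H1975 was the high line for the higher genes by the member rule, with PC9 lowest for CXCL1 and HCC827 lowest for CXCL8. HCC827-GR was high for several, with CXCL8 at 161 CPM and IL6 at 42 CPM, and 4 of the 12 passed 2-fold in all 6 libraries, among them BIRC3 and IL24.

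Metallothioneins, which bind zinc and copper, were higher in all 3 measured, of 10 listed. MT1E and MT1X reached 10 CPM in H1975 alone among the parental libraries, so the minimum favoured a higher call for them. Besides MT1E, MT2A was at 115, 59.6 and 345 CPM and MT1X at 8.04, 3.51 and 22.5 CPM. That order did not hold in the resistant libraries, where MT2A was at 871 CPM in HCC827-GR, 106 CPM in PC9-GR and 133 CPM in H1975-OR, and MT1E alone passed 2-fold in all 6. The MT2A promoter is shown for the metal response letters TGCGCNC and TGCACNC, in capitals on either strand, which stood there 8 times with no overlap and are in 20% and 11.9% of all promoters, 31.9% and 11.2% of those of measured genes and 30.1% and 10.3% of those of higher members.
MT2A promoter, chr16:56608334-56608633, plus strand: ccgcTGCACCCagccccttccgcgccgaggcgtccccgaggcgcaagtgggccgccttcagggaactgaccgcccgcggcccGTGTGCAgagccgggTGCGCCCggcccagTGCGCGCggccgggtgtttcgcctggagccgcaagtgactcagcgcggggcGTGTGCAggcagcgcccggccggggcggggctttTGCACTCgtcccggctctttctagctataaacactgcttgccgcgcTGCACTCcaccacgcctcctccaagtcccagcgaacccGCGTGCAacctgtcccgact

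Genes of the EGFR pathway are given from receptor to output. Of the 3 measured receptors of its family 2 were lower: beside EGFR, ERBB3, the partner that recruits PI3K, was at 98.8, 93.8 and 5.75 CPM (54.1% unique). Of 7 ligands 2 were lower and 1 higher. Amphiregulin (AREG) was at 208, 30.8 and 14.5 CPM, betacellulin (BTC) at 22.1, 8.91 and 3.17 CPM, and neuregulin 1 (NRG1), a ligand of ERBB3, at 41.9, 2.31 and 86.1 CPM. HCC827 was far above PC9 for AREG and NRG1, and H1975 passed its nearer line by little, with gaps of -1.04 and 1.02. Of 30 adaptor, RAS-ERK and PI3K genes 1 was lower and 3 higher, near the share of all genes. AKT2, a kinase of the PI3K chain, was level in the deletion lines, at 159 and 157 CPM, and at 30.8 CPM in H1975. All 6 libraries kept that order (148, 167 and 41.2 CPM in the resistant libraries). AKT2 lies on chromosome 19 from 40 to 50 Mb, where 64 of 163 measured genes were lower. NF1, a brake on RAS, was at 55.8, 72.8 and 177 CPM, and LRIG1, a negative regulator of EGFR, at 2.22, 0.867 and 36.5 CPM (45% unique). ERK output genes were lower in 2 of 19 (ETV4 and SPRY1) and higher in 1, ETV1 (4.22, 6.69 and 41.4 CPM), near the share of all genes.

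Among other receptor tyrosine kinases 4 of 19 were lower and 1 higher. EPHA1 was at 19.3, 28.6 and 0.55 CPM, MERTK at 18.1, 9.97 and 1.31 CPM, FGFR4 at 44.3, 13.2 and 4.48 CPM and the collagen receptor DDR1 at 128, 187 and 53.9 CPM. The insulin receptor (INSR) was the higher one, at 11.3, 5.59 and 34.2 CPM. In the WNT and TGF-beta pathways 5 of 32 were higher and 3 lower, the lower count near the share of all genes. The ligand BMP2 was at 1.67 CPM, 0 reads and 40.4 CPM, and the receptor TGFBR1 at 26.4, 22.6 and 179 CPM. The activin subunit INHBB was at 21.5, 17.7 and 0.212 CPM and WNT7B at 66.5, 151 and 15.9 CPM. These 4 kept their side of all deletion-line libraries. YAP and TEAD targets were higher in 4 of 20 and lower in 2, the lower count near the share of all genes. In all 6 libraries 0 of the higher and 1 of the lower genes passed 2-fold. CTGF was at 4, 7.03 and 20.4 CPM, but at 125 CPM in HCC827-GR and 23.5 CPM in H1975-OR. Tissue factor (F3), the lower gene that passed in all 6, was at 418, 580 and 70.9 CPM.

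Integrins, the matrix receptors, went both ways, and were higher in 4 of 13 and lower in 3. The fibronectin receptor chains ITGA5 (94.4, 52.5 and 506 CPM), ITGB1 (1029, 919 and 2702 CPM, 64.1% unique) and ITGAV (88.3, 113 and 285 CPM) were higher, while the epithelial beta chains ITGB6 (54.2, 82.7 and 1.99 CPM), ITGB4 (84.9, 500 and 20.9 CPM) and ITGB8 were lower. Laminins and basement membrane genes were lower in 5 of 15 and higher in 1. LAMB1 was at 302 and 323 CPM in the deletion lines and 16.3 CPM in H1975, with 532, 403 and 6.77 CPM in the resistant libraries, and LAMA5 at 472, 205 and 34.4 CPM. LAMB2 was the higher one, at 43.5, 60.5 and 125 CPM. Matrix proteases and their inhibitors were higher in 3 of 16 and lower in 2. MMP14, a membrane collagenase, was at 0.764, 25.1 and 178 CPM, and the protease nexin SERPINE2 at 12.6 and 108 CPM with 0 reads in both H1975 libraries.

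Homeobox genes of the HOX clusters, which record body position, were lower in 4 of 6 and higher in 0, in all 6 libraries. HOXA3 was at 24.3, 26.2 and 0.338 CPM and HOXB7 at 17.2 and 27.7 CPM with 0 reads in H1975, at least 135-fold and 218-fold lower. HOXB6 (17.6% unique) also had 0 reads in H1975. At a minimum of 50 CPM no HOX gene was measured, and at 1 CPM 12 were lower. CDKN2A, which holds the cell cycle through CDK4 and RB, was at 249, 119 and 9.73 CPM (52.2% unique), the only lower gene of 15 regulators of G1. RBL1 (12.9, 15.4 and 67.1 CPM) and CDKN2C were higher, and both counts are near the share of all genes. Of 30 mitotic and replication genes 0 were higher and 1 lower, BIRC5 (140, 179 and 62.2 CPM), under the share of all genes, and its gap was -0.79 with TPM and -0.74 after centring by GC content and length. Of 18 p53 targets 2 were lower, PHLDA3 (57.2, 32.7 and 8.59 CPM) and BAX, and 0 higher, a share close to that of all genes. The gap of BAX was -1.01, but -0.83 with library size alone, -0.68 in TPM and -0.41 after centring by GC content and length. BAX lies in the same part of chromosome 19 as AKT2, from 40 to 50 Mb, where 64 of 163 measured genes were lower.

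NRF2 targets and aldo-keto reductases were lower in 6 of 31 and higher in 1: the export pump ABCC2 was at 97.8, 100 and 4.74 CPM, the aldo-keto reductase AKR1B10 at 14.9, 53.7 and 4.36 CPM, and HMOX1, which breaks down heme, at 16, 8.81 and 48.5 CPM. HCC827-GR was at 3.41 CPM for ABCC2 and 0.225 CPM for AKR1B10, and 0 of the 6 passed 2-fold in all 6 libraries. Glycolytic genes were lower in 4 of 20 and higher in 1. GAPDH was at 10613, 6376 and 2687 CPM and TPI1 at 3059, 1388 and 537 CPM, both lowest in H1975. The gap of GAPDH was -0.9 with TPM and -0.76 after centring by GC content and length. Both genes lie on chromosome 12 from 0 to 10 Mb, where 31 of 69 measured genes were lower, and the part of position in their levels was not tested. The glucose carriers parted, with SLC2A1 at 227, 305 and 85.5 CPM and SLC2A3 at 4.36, 15.4 and 55.2 CPM. SLC2A1 lies on chromosome 1 from 40 to 50 Mb, where 26 of 75 measured genes were lower. Aldehyde dehydrogenases were lower in 2 of 14 and higher in 1, near the share of all genes, with ALDH1A3 at 272, 1193 and 48.1 CPM. Cholesterol genes were lower in 1 of 22, TM7SF2, and higher in 0, under the share of all genes. Cancer-testis antigens were higher in 3 of 15 and lower in 2: PRAME was at 19.6, 0.193 and 58 CPM, and CT45A1 had 0 reads in all 4 deletion-line libraries and was at 31.6 CPM in H1975, with 38.2% of reads unique.

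**Figure D4:**
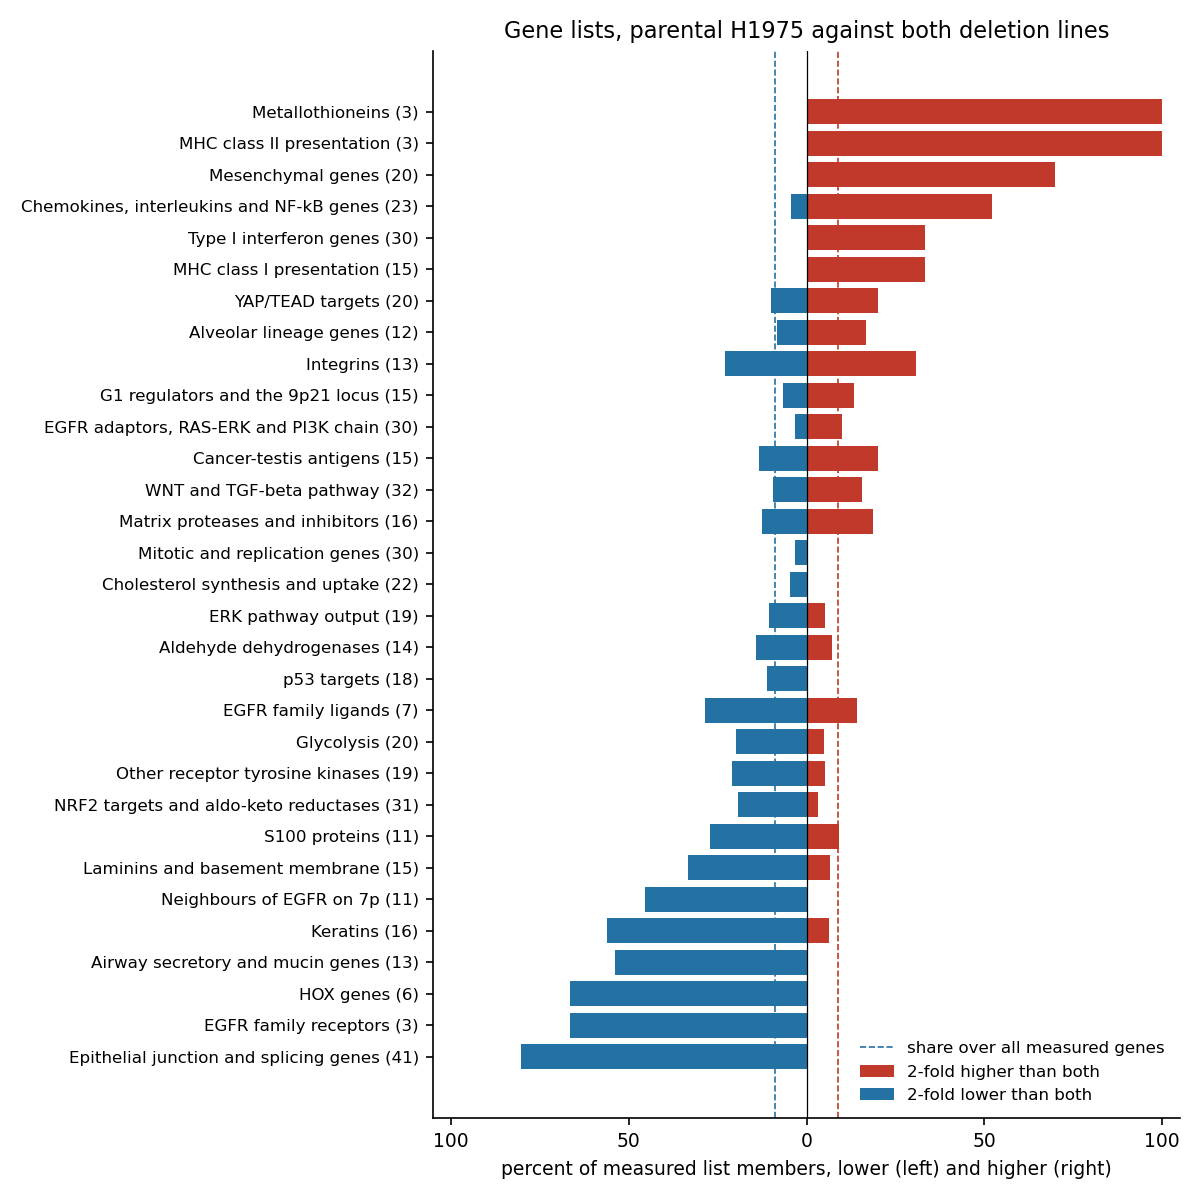
Percent of the measured genes of each of 31 lists (number measured in parentheses) that were at least 2-fold lower (left, blue) or higher (right, red) in parental H1975 than in both deletion lines. Dashed lines are the shares over all measured genes, 8.78% lower and 8.71% higher; the epithelial list lies farthest left with 33 of 41, and lists of 3 genes have wide steps.

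Members were not spread evenly over the chromosomes, which the choice of members did not use. On chromosome 10, 82 of 429 measured genes were higher (19.1%) and 13 lower, and 48 were higher in all 6 libraries. Chromosome 1 leaned the other way, with 150 lower of 1118 (13.4%) and 57 higher. On chromosome 12, 86 of 588 were lower (14.6%). In windows of 10 Mb, the part of chromosome 10 from 80 to 90 Mb had 14 of 27 genes higher. Among the 14 were IFIT1, IFIT2, IFIT3 and IFIT5 of the interferon list, so the window and list counts overlap. Reads of IFIT1, IFIT2 and IFIT3 were mostly not unique, as given above. The lysosomal lipase LIPA was at 53.9, 32.5 and 359 CPM in the window. Like the other genes whose levels are given in this and the next paragraph, LIPA was chosen after its values were seen. At the end of chromosome 17, from 80 Mb on, 27 of 57 were lower, 0 higher, and 19 lower in all 6 libraries. FOXK2 was at 92.8, 119 and 21.3 CPM, SIRT7 at 28.4, 33 and 6.94 CPM and RAC3 at 33.8, 53.7 and 8.67 CPM, with the deletion lines close to each other. Copy number was not analysed here.

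Zinc finger genes on chromosome 19 were members as a run of related neighbours. Of 171 measured genes named ZNF there, 89 were higher and 2 lower, 72 of them higher in all 6 libraries, against 24 higher and 127 lower among the other 610 genes of the chromosome. Many of these proteins carry a KRAB domain and silence transposable elements. From 20 to 30 Mb, 22 of 28 measured genes were higher and 20 of them in all 6 libraries. ZNF43 was at 11.6 CPM in HCC827, 8.04 CPM in PC9 and 70.9 CPM in H1975, ZNF91 at 8.22, 8.47 and 62.3 CPM and ZNF714 at 1.24, 7.85 and 71.1 CPM. Their levels were similar in the resistant libraries, where ZNF43 was at 10, 4.57 and 56.7 CPM. Reads of related zinc finger genes can be shared, as for ZNF493, with 13.2% unique.

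Base composition and length moved with the direction of the members. The median GC content of the transcripts was 42.9% for higher members, 55.5% for lower members and 47.6% for all measured genes, and the median exon length was 5444, 3404 and 4188 bases. With genes in 5 equal bins by GC content, 13.4% were higher and 3.5% lower in the bin of lowest GC, and 4.86% and 17.6% in the bin of highest GC. The same slope was present between H1975-OR and the resistant deletion sublines, with median log2 ratios to HCC827-GR of 0.49 in the lowest and -0.49 in the highest bin. GC content and exon length were available for 99.9% of measured genes. Once each ratio was centred on genes of like GC content and length, 806 were higher and 757 lower, of which 662 and 629 were members before. Chromosome 10 then had 57 higher genes (13.3%) and chromosome 19 had 108 (13.8%), against 7.32% of all genes. The chromosome 10 window from 80 to 90 Mb had 8, the zinc finger genes of chromosome 19 had 64, and the end of chromosome 17 had 13 lower. The order of chromosomes by lower genes also turned: after centring chromosome 19 had 8.83%, chromosome 12 14.1%, chromosome 1 11.8% and chromosome 13 22%, up from 12.1%. Of all genes 6.88% were then lower. The part of this slope in single members was not tested.

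**Figure D5:**
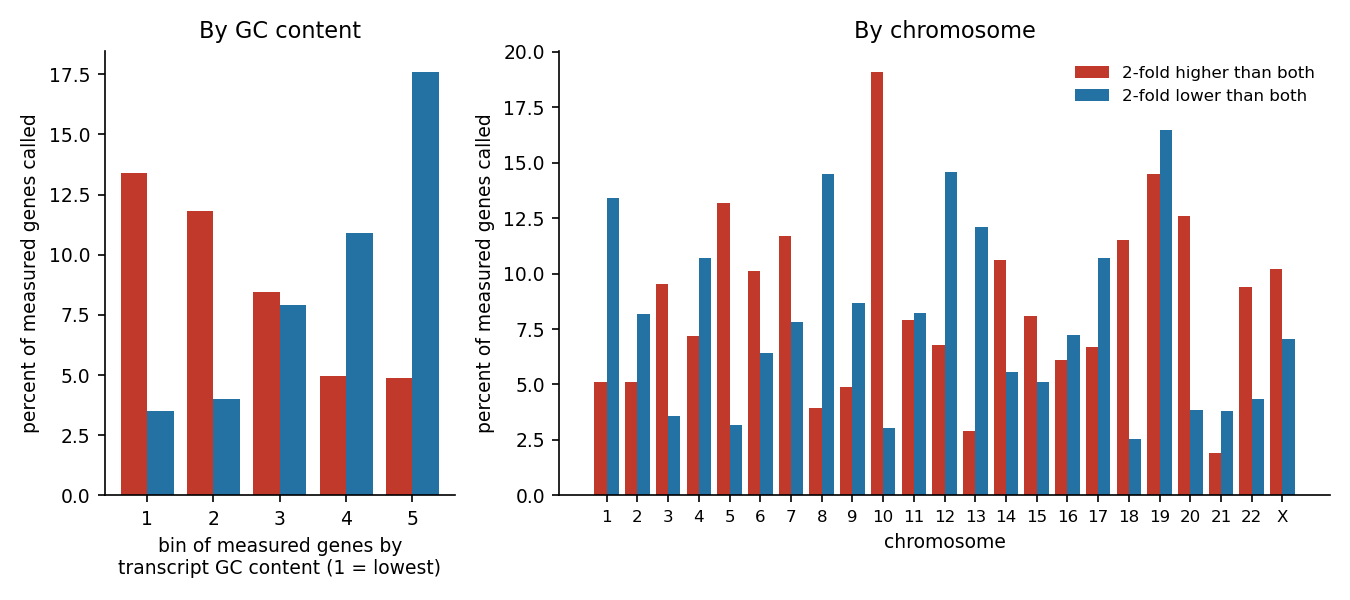
Percent of measured genes at least 2-fold higher (red) or lower (blue) in parental H1975 than in both deletion lines, by 5 equal bins of transcript GC content (left) and by chromosome (right). Higher genes decline and lower genes increase with GC content. Before centring by GC content and length, chromosome 10 has the largest share of higher genes and chromosome 19 the largest share of lower genes. After centring the order of lower genes turns, and chromosome 19 has a larger share of higher genes than chromosome 10 (13.8% against 13.3%).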

How the data were processed

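Stranded mRNA libraries were made from RNA taken up in GENEzol (TruSeq kit, per the labels). Trimmomatic, Bowtie2 and hg38 are listed in the submitters' processing notes without roles. Which tool and annotation made the counts, and how multiply mapping reads were treated, is not given in the sources used here. The authors deposited raw counts of 3 kinds per gene and library: all exon reads, those mapping uniquely, and intron reads. TPM were also deposited by the authors in the same files.

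Total exon reads were scaled by TMM in edgeR 4.0.16 (R 4.3.3, limma 3.58.1). Ratios, the gap and the 2-fold call on genes of at least 10 CPM were computed in Python 3.11.15 with 1 CPM added. A fold against 0 reads was taken against 3 reads in that library and covers counting error only. The edgeR quasi-likelihood test used filterByExpr and Benjamini-Hochberg adjustment, two-sided, at 0.05. DESeq2 1.42.0 and limma-voom were alternatives. The script was tested on simulated data. With 1 library a line, the only spread is between lines.

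Members and the 31 lists were chosen with earlier results of these data known. Named genes are the 15 with the largest gap in each direction (protein coding, at least 80% unique reads), EGFR, and up to 4 per list and direction with the largest gap, plus a list's most abundant gene where fewer than 2 were called. Further list members are named as examples chosen after their values were seen, and some genes of the rule are left out for brevity. Alternatives changed scaling, read type, pseudocount, minimum, fold and lines; GC and length centring and leaving out HCC827-GR were added after seeing the data. Some items that the rule names are not reported here.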

Additional observations from a re-analysis of the deposited data

Results flagged for a closer look

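Of the 960 members higher in parental H1975, 3 lay at least 2-fold on the opposite side in the resistant libraries, so the parental and the resistant comparison of the same lines moved in opposite ways. The difference between the 2 comparisons was not tested, as there is 1 library each. ARTN, a ligand of the GDNF family, had a parental gap of 1.05, at 2.65, 4.33 and 10.1 CPM in HCC827, PC9 and H1975, but was at 15.9, 16.1 and 4.6 CPM in the resistant sublines of the lines in that order. SLC1A4, a neutral amino acid carrier, had a gap of 1.21, at 3.27, 5.06 and 13 CPM, and then 14.7, 12.8 and 5.29 CPM. VGF, a secreted neuropeptide precursor, had a gap of 3.01, at 2.18, 2.02 and 24.6 CPM, and then 5.93, 2 and 0.263 CPM. For ARTN and SLC1A4 the deletion lines were higher and H1975 lower after selection, while for VGF the main change was in H1975.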

How the results depend on the processing

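With TPM, 1485 genes were higher and 549 lower, 682 and 220 over all 6 libraries, MHC class I had 9 higher, NRF2 targets 3 lower, neighbours of EGFR 3 lower and chromosome 1 85 lower. Library size alone gave 3 lower NRF2 targets and 3 lower neighbours of EGFR, and unique reads 6 higher interferon genes. At a minimum of 50 CPM the counts were 455 higher and 510 lower, with 9 mesenchymal, 5 interferon, 6 chemokine, 40 chromosome 10, 18 chromosome 19 zinc finger and 0 PCDHB and PCDHG genes higher, and 0 HOX and 82 chromosome 1 genes lower. At 1 CPM, 12 HOX genes were lower and 15 PCDHB and PCDHG genes higher. At 4-fold, 258 were higher and 303 lower. Centring by GC content and length, added after seeing the data, gave 9 higher MHC class I genes, and leaving out HCC827-GR 677 lower over the other libraries.

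Against HCC827 or PC9 alone, counts ranged from 1863 to 1866 higher and 1926 to 1956 lower. The ranges were 10 to 27 higher for interferon genes, 6 to 11 higher for MHC class I, 9 to 11 lower for secretory genes, 8 to 17 lower for NRF2 targets, 5 to 9 lower for neighbours of EGFR, 260 to 263 lower for chromosome 1 and 116 to 173 higher for chromosome 10. DESeq2 called 583 genes where edgeR called 0. No gap of a named member reversed in any setting run, but a gap is set to 0 unless both ratios lie on 1 side, so reversal needs both to turn. Each main count was compared with its value in each setting: 170 comparisons stayed within 1.5 times and 40 moved further. For gaps of named genes, 1334 comparisons stayed within the standard deviation of the 2 deletion lines and 406 moved further. Part of this tally was fixed in advance. Changing the minimum leaves a gap as it is. Leaving out a deletion line either keeps the gap or moves it by the full difference between the deletion lines, which exceeds their standard deviation. Of 143 named members, 124 to 143 stayed past 2-fold, the fewest after centring. In some settings all 143 had to stay. These were leaving out a deletion line, lowering the pseudocount, and changing the minimum, which this count did not apply. No paired analysis was possible because the labels give no replicate numbers and the groups hold different lines. Depth limits genes near 0: 3 reads were 0.0986 to 0.144 CPM.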

Other observations

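Clustered protocadherins, adhesion molecules with variable first exons, were not among the lists and were looked at after their values were seen. Of 8 measured PCDHB and PCDHG genes, 6 were higher in H1975, against 8.71% of all measured genes, and all 6 passed 2-fold in the 6 libraries. PCDHB13, PCDHB15 and PCDHB16 reached 10 CPM in H1975 alone among the parental libraries, so the minimum favoured a higher call for them. PCDHB16 was at 5.46 CPM in HCC827, 0 reads in PC9 and 37.7 CPM in H1975, and at 5.36, 0.0416 and 29.1 CPM in the resistant sublines of the lines in that order. PCDHB15 was at 0.764 CPM, 0 reads and 12.1 CPM, and PCDHB13 at 4.22 CPM, 0 reads and 33.5 CPM. In all 3 genes PC9 was at or near 0, HCC827 low and H1975 high, before and after drug selection. Reads of PCDHGA2 and PCDHGA6 mapped uniquely in 1.56% and 0.809% of cases, so their levels are uncertain.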
